A study of Mus musculus with 14 samples.

Results

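The genes followed here are 10 genes of the glutathione cycle, out of the 34452 mouse genes in the count table, and all 10 were among the 16289 genes tested. They were taken by name: Gclc, Gclm and Gss for synthesis, Slc7a11 and Slc3a2 for cystine import, Gsr for reduction, and Ggt1, Ggt5, Ggct and Chac1 for breakdown and gamma-glutamyl turnover. RNA of the retinal pigment epithelium (RPE), the cell layer behind the retina that supports the photoreceptors, was sequenced from 7 rd1 mice aged 20 postnatal days. rd1 mice (strain FVB/N) lack Pde6b function, and their rods degenerate early, and both eyes of a mouse share that mutation. Both eyes of every mouse received AAV-Best1-GFP in the 7m8 capsid, which marks infected RPE with green fluorescent protein. The eyes called Nrf2 here also received AAV-Best1-Nrf2 in an AAV8 capsid, which carries the human NFE2L2 coding sequence, while the other eye of the same mouse, called control, did not. The Best1 promoter of both vectors is human and active in the RPE. The transgene and the added vector cannot be told apart, since no eye received an AAV8 vector without Nrf2. Each group holds 7 libraries, and a library is named by its group and mouse. The methods count fewer pairs for this age than the labels do, and every labelled pair was used. The libraries were sequenced in separate runs, and the labels do not assign a run to a library.

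Glutathione is the main low-molecular-weight thiol of the cell. Its synthesis starts with the joining of glutamate and cysteine by glutamate-cysteine ligase, the rate-limiting step, and ends with the addition of glycine by glutathione synthetase. Cysteine is often the scarce substrate, and it is brought in as cystine by an exchanger that exports glutamate. Glutathione reductase restores the oxidized form with NADPH, and gamma-glutamyl transferases and cyclotransferases take glutathione and its products apart. Nrf2 is a transcription factor that binds antioxidant response elements together with small Maf proteins, and several of the synthesis genes are textbook targets of it. In the RPE, which faces bright light and a rich oxygen supply, glutathione is a main defense against oxidative damage.

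The promoters of 7 of the 10 genes had an entry in the RefSeq promoter windows (build GRCm38.p6, 250 bases before to 50 bases after a transcript start), in 10 windows. The letters TGACNNNGC, the core of the antioxidant response element, were searched on both strands, and 5 of the 10 windows held them, in 3 genes, Gclm, Ggct and Ggt1. Of all 32851 promoter windows, 12.4% held these letters. More than 1 of the windows with the core is an alternative start of Ggt1, so the windows are not independent genes. Of the 3 genes, Gclm rose in the test below, and Ggct and Ggt1 did not pass. The windows of Gss and Slc7a11, which rose, and of Slc3a2 and Chac1, which did not pass, held no match. The longer form, with A or G before TGAC, was in 1 of the 10 windows and in 6.31% of all windows. That window belongs to Ggt1, which did not pass the test below, and the match of Gclm lacks the longer form. A second search, chosen after the values of Chac1 and Slc7a11 were seen, used TGATGNAA, the core of a CEBP-ATF composite site at which Atf4 is known to bind, and found it in Chac1 and Slc7a11 and in 3.97% of all windows. The 250 bases before the start are printed here for 3 genes, Gclm because it rose and holds the antioxidant core, and Slc7a11 and Chac1 because they share the CEBP-ATF core and moved differently. Capitals mark the antioxidant core in Gclm (on the opposite strand to the gene, its first printed base 134 bases before the start) and the CEBP-ATF core in Slc7a11 (66 bases before the start on the gene's strand, 47 bases before it on the opposite strand) and in Chac1 (193 bases before the start, opposite strand). The sequences run 5′ to 3′ on the strand of the gene, and their positions are chr3:122245307-122245556 (plus strand) for Gclm, chr3:50443614-50443863 (minus strand) for Slc7a11 and chr2:119350992-119351241 (plus strand) for Chac1.
Gclm: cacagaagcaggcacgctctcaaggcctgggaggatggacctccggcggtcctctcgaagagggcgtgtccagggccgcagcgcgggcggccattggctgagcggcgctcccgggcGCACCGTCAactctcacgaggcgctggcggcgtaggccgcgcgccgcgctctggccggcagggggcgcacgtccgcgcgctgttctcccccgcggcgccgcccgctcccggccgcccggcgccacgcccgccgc
Slc7a11: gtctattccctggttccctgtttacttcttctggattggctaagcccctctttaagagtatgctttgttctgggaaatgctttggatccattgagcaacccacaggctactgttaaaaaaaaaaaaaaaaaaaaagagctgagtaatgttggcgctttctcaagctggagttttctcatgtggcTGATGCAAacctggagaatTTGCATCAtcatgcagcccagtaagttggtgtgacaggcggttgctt
Chac1: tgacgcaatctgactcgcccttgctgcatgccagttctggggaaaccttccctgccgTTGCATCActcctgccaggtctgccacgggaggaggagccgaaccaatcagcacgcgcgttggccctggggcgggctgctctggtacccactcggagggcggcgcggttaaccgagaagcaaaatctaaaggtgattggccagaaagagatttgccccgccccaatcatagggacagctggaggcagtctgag
No match of one core overlapped a match of the other. A match describes letters in the window and was not tested as a binding site.

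Total counts ranged from 16548349 to 50543008 per library. Values are given as CPM, a library's counts scaled to a total of 1000000, while fold changes and paired differences are on the log2 scale after TMM normalization, which corrects for differences in RNA composition. The vector transcript, human NFE2L2, was measured first because it checks the labels. It ran from 1163 to 8711 CPM in Nrf2 eyes with a median of 5868, and from 1.12 to 1163 CPM in control eyes with a median of 51.8. The libraries labelled control 3 and Nrf2 4 therefore met at 1163 CPM, although they carry different labels. Both were kept in their labelled groups, and each result is also given with mice 3 and 4 left out. Mouse Nfe2l2, the endogenous gene, lay between 57.5 and 102 CPM in control and between 74.4 and 107 CPM in Nrf2 eyes, and did not pass the test (log2 fold change 0.28, SE 0.10, edgeR adjusted p = 0.204). The groups were compared with the paired quasi-likelihood test of edgeR, with p adjusted by Benjamini-Hochberg over all 16289 genes and a threshold of 0.05.

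Nrf2 eyes held more RNA of the whole synthesis arm, of the cystine carrier Slc7a11, of the reductase Gsr and of Ggt5. Of the 10 genes, 6 rose and 0 fell, where 2.94% of all genes tested rose and 0.491% fell. The 10 genes were chosen with earlier results of these data known. The counts and the median given here describe them and are no independent test. In 5 of the 10, Gclc, Gclm, Gss, Slc7a11 and Gsr, every Nrf2 eye lay above every control eye, which was so for 1.04% of all genes. The other 4, Slc3a2, Ggt1, Ggct and Chac1, did not pass. At an unadjusted p under 0.05 the edgeR test gave 8 higher genes and 1 lower, Chac1, where 10.7% of all genes were higher and 7.49% lower. After adjustment DESeq2 gave 7 and 1 of the 10 (7.6% and 4.33% of all genes) and voom 8 and 1 (9.73% and 6.17%). The background moved with single mice. Without mouse 4 the edgeR test gave 6 higher and 1 lower of the 10 genes, where 5.99% of all genes rose and 6.25% fell, and without mouse 7 it gave 5 and 0, where 0.626% rose and 0.0552% fell. The median log2 fold change was 2.32 over the 10 genes and -0.04 over all genes tested. These are levels in bulk RNA, in which fewer cells of a type and less RNA per cell cannot be told apart.

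**Figure D1:**
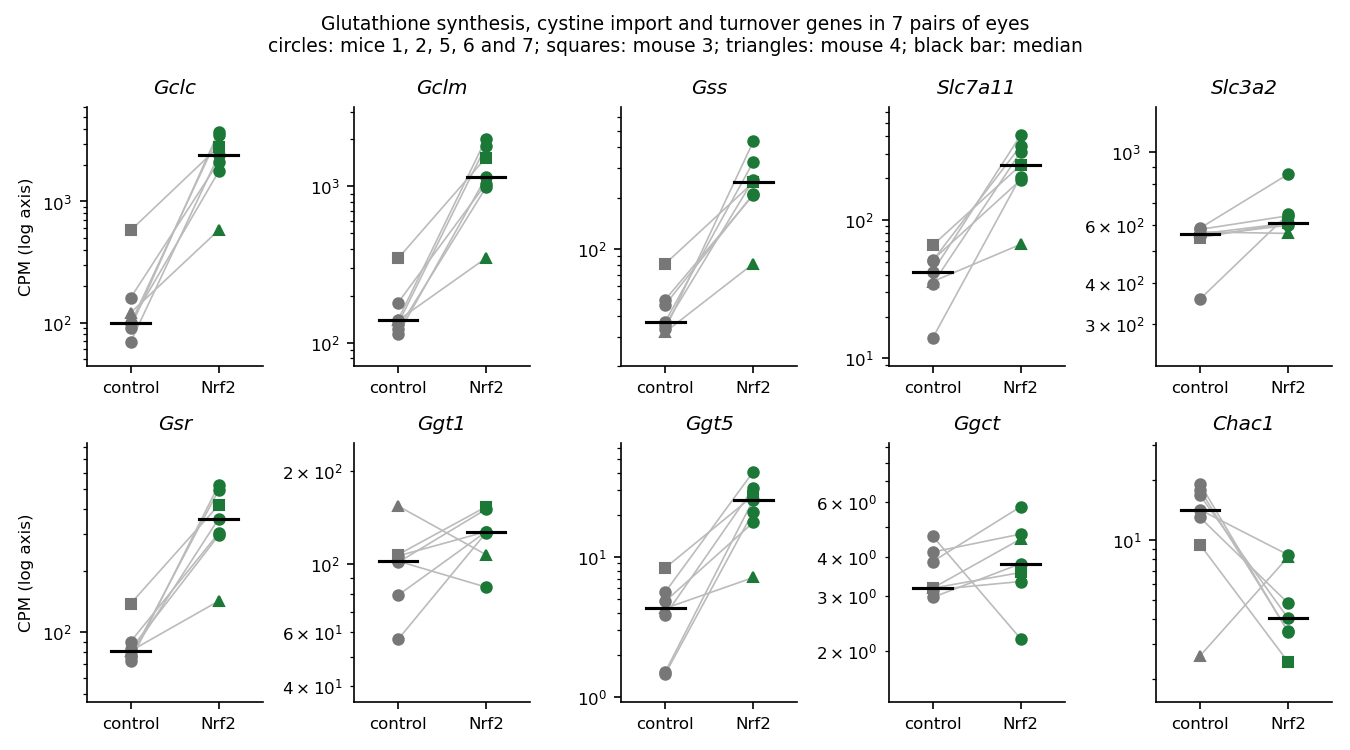
Level of each of the 10 genes in CPM on a log axis, control eyes in gray and Nrf2 eyes in green, with a line joining the eyes of a mouse, squares for mouse 3, triangles for mouse 4 and a black bar at the median of 7. The groups are apart for Gclc, Gclm, Gss, Slc7a11 and Gsr, and for most rising genes the highest control is the square of control 3 and the lowest Nrf2 eye is the triangle of Nrf2 4.

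Gclc encodes the chain of glutamate-cysteine ligase that carries out the catalysis (GRCm38 chromosome 9, 77754535 to 77794485, plus strand, ENSMUSG00000032350). It ranged from 69.5 to 577 CPM in control eyes with a median of 100.1, and from 580.3 to 3766 CPM in Nrf2 eyes with a median of 2414. The groups touched only at control 3 (577 CPM) and Nrf2 4 (580.3 CPM), and the next control eye was at 160.2 CPM. The mean went from 174 ± 180.1 to 2434 ± 1090 CPM (SD, n = 7), a fitted change of 17.9-fold. On the log2 scale this was 4.16 (SE 0.50) with an edgeR adjusted p of 0.00936, and the change in single mice lay between 2.44 and 5.52. With mice 3 and 4 left out the estimate was 4.82. In mice 3 and 4 the change was 2.51 and 2.44, the smallest of the 7, and in mice 1 and 7 it was 5.52 and 5.47, the largest.

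Gclm encodes the modifier subunit, which raises the affinity of the ligase for glutamate and eases feedback inhibition by glutathione (ENSMUSG00000028124, chromosome 3, 122245557 to 122270732, plus strand). Control eyes held 113 to 346 CPM (median 139) and Nrf2 eyes 348 to 2011 CPM (median 1146). Again the eyes next to each other across the groups were control 3 and Nrf2 4, and the groups did not overlap. The fit gave 2.99 (SE 0.34, edgeR adjusted p = 0.00936) on the log2 scale, and 3.41 without mice 3 and 4. Exons of Gclm overlap the pseudogene Gm6061 on the same strand over 244 bases, and Gm6061 was listed at 2.49 ± 0.883 CPM in control and 3.98 ± 1.21 CPM in Nrf2 eyes (SD, n = 7), far below Gclm.

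The catalytic subunit changed more than the modifier in each of 7 mice. The paired log2 change of Gclc exceeded that of Gclm by 1.16 ± 0.52 on average (SD, n = 7), with single mice between 0.15 and 1.77 (exact two-sided sign-flip permutation test, p = 0.0156, adjusted p = 0.0208 over 4 pairs of genes). The sign-flip test over 7 mice has 128 patterns, and 0.0156 is the smallest p it can give. All 4 pairs were chosen with earlier results of these data known, so the p-values of the pairs describe these mice and are no independent test. The ratio of Gclc to Gclm counts went from a median of 0.821 in control eyes (0.615 to 1.67) to 1.87 in Nrf2 eyes (1.67 to 2.11). The ratio is not corrected for transcript length, so only its change can be read. Without mice 3 and 4 the mean difference was 1.40, with an adjusted p of 0.0625 by the exact test, the smallest that 5 mice allow. Mouse 3, whose control eye had the highest ratio of the controls, gave the smallest difference.

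Gss encodes glutathione synthetase, which adds glycine in the last step (ENSMUSG00000027610, chromosome 2, 155563181 to 155592810, minus strand). Control eyes lay between 32 and 81.3 CPM (median 36.9) and Nrf2 eyes between 81.4 and 432 CPM (median 247), so that the groups nearly met. The fitted log2 fold change was 2.54 (SE 0.30, edgeR adjusted p = 0.00936), and single mice changed by 1.52 to 3.80. Left without mice 3 and 4, the estimate was 2.89. Gss shares 395 exonic bases with Acss2 on the opposite strand, and whether the counting used strand is not given in the sources used here. Acss2, an acetyl-CoA synthetase, was at 38.9 ± 16.3 CPM in control and 55.2 ± 14.2 CPM in Nrf2 eyes (SD, n = 7) and did not pass (log2 fold change 0.70, SE 0.26, edgeR adjusted p = 0.209).

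Slc7a11 encodes xCT, the transport subunit of the cystine-glutamate exchanger (ENSMUSG00000027737, chromosome 3, 49892526 to 50443614, minus strand). It ran from 14 to 65.4 CPM in control eyes (median 42.1) and from 66.5 to 407 CPM in Nrf2 eyes (median 248). The highest control eye and the lowest Nrf2 eye were again control 3 and Nrf2 4. Its log2 fold change was 2.68 (SE 0.33, edgeR adjusted p = 0.00936), with 1.07 in the mouse that changed least and 3.84 in the mouse that changed most. The estimate was 3.10 with mice 3 and 4 left out.

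Slc3a2 encodes CD98, the glycoprotein chain that carries Slc7a11 to the membrane and serves several other amino acid transporters as well (ENSMUSG00000010095, chromosome 19, 8706882 to 8723369, minus strand). Its level was already high in control eyes, 357 to 586 CPM (median 563), and 565 to 854 CPM in Nrf2 eyes (median 607). Of the Nrf2 eyes, 6 lay above every control eye, but by small steps. The log2 fold change of 0.40 (SE 0.13) did not pass in the edgeR test (adjusted p = 0.148). After TMM normalization all 7 mice were higher in the Nrf2 eye, by 0.08 to 0.83 (exact two-sided sign-flip test of this gene alone, p = 0.0156). Of all genes tested, 5.65% were higher in all 7 mice. In plain CPM mouse 4 went the other way, from 571 to 565. DESeq2 and limma voom with sample quality weights passed Slc3a2, both at a log2 fold change of 0.41, with adjusted p of 0.0106 and 0.0224.

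Within the transporter the light chain thus changed more than the heavy chain in 7 of 7 mice. The log2 change of Slc7a11 exceeded that of Slc3a2 by 2.27 ± 0.79 (SD, n = 7), between 0.91 and 3.03 in single mice. The exact sign-flip permutation test gave p = 0.0156 (adjusted p = 0.0208), for a pair chosen with earlier results of these data known. Slc7a11 counts per Slc3a2 count went from a median of 0.0719 (0.0393 to 0.119) in control to 0.408 (0.118 to 0.57) in Nrf2 eyes. Only the range ends overlapped, at control 3 and Nrf2 4. Without those mice the difference was 2.64, at the smallest adjusted p of the exact test, 0.0625.

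Gsr encodes glutathione reductase (ENSMUSG00000031584, chromosome 8, 33652523 to 33698163, plus strand). Control eyes lay at 72.8 to 138 CPM (median 81.1), with 6 of them at 90.1 CPM or less and control 3 at the top, and Nrf2 eyes ranged from 142 to 523 CPM (median 358). Every Nrf2 eye lay above every control eye. The log2 fold change was 2.10 (SE 0.25, edgeR adjusted p = 0.00936), the smallest among the 6 genes that rose, and 2.37 without mice 3 and 4.

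**Figure D2:**
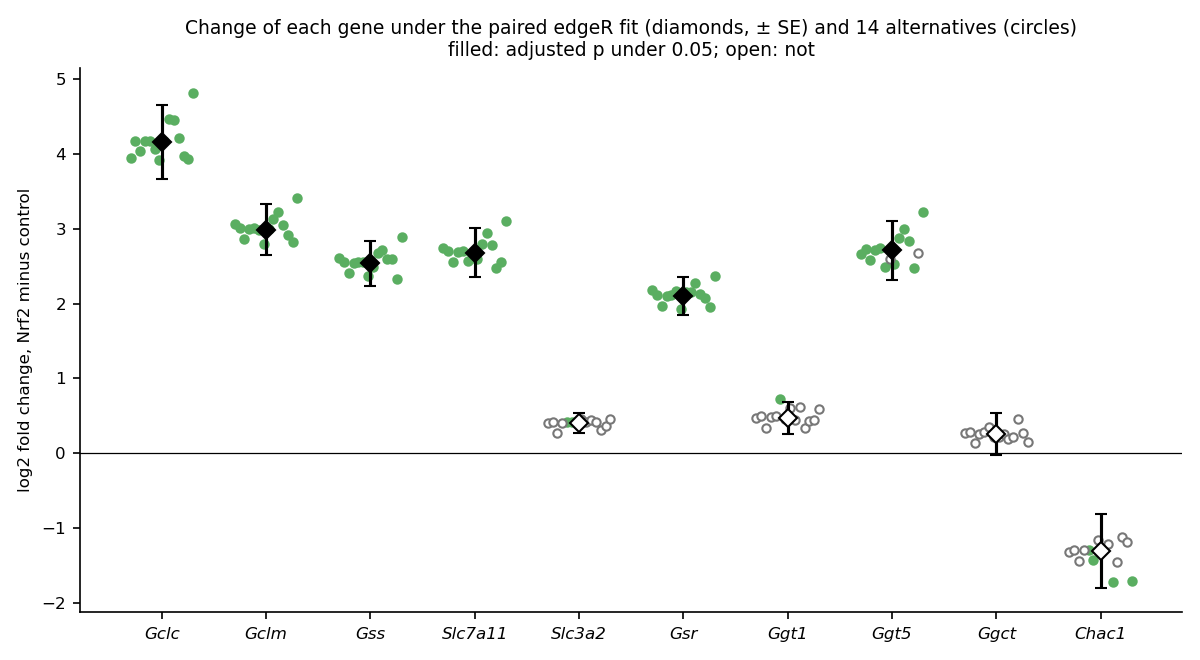
Fitted log2 fold change (Nrf2 minus control) of each gene in the paired edgeR test (diamond, bar ± SE) and under 14 alternatives (circles), filled where the adjusted p was under 0.05. Gclc, Gclm, Gss, Slc7a11 and Gsr are filled throughout at 1.93 or more, Ggct is open throughout, and Chac1 lies below 0 under all alternatives but is filled only in some.

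The extracellular gamma-glutamyl transferases lie next to each other on the plus strand of chromosome 10, Ggt1 at 75561604 to 75586200 (ENSMUSG00000006345) and Ggt5 at 75589340 to 75617200 (ENSMUSG00000006344). Both cleave the gamma-glutamyl bond of extracellular glutathione, and Ggt5 is also known for converting leukotriene C4. Ggt5 was a low transcript, at 1.47 to 8.38 CPM in control eyes (median 4.31) and 7.15 to 40.7 CPM in Nrf2 eyes (median 25.7). Its lowest library held 36 counts. The groups overlapped only through Nrf2 4 (7.15 CPM) and control 3 (8.38 CPM). Ggt5 rose with a log2 fold change of 2.71 (SE 0.40, edgeR adjusted p = 0.0135), higher in 7 of 7 mice, and by 3.23 without mice 3 and 4. The call was lost without mouse 1 (2.59, edgeR adjusted p = 0.0534) and without mouse 7 (2.67, edgeR adjusted p = 0.0588).

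Ggt1, by contrast, was at 56.8 to 154 CPM in control eyes (median 102) and at 84 to 153 CPM in Nrf2 eyes (median 127), almost the same range. It was higher in 5 of 7 mice and lower in mice 2 and 4, whose log2 changes were -0.33 and -0.36. Its fitted log2 fold change of 0.47 (SE 0.21) did not pass (edgeR adjusted p = 0.271), and was 0.59 without mice 3 and 4. Only voom with quality weights passed it, at 0.73 (adjusted p = 0.0189). The change of Ggt5 exceeded that of its neighbor in 7 of 7 mice, by 2.22 ± 1.24 (SD, n = 7) with a range of 0.71 to 4.06. The exact sign-flip permutation test gave p = 0.0156 (adjusted p = 0.0208), for a pair chosen with earlier results of these data known. The ratio of Ggt5 to Ggt1 counts went from a median of 0.0363 (0.0145 to 0.0853) to 0.203 (0.067 to 0.271). In the 5 mice other than 3 and 4 the difference was 2.62, with an exact adjusted p of 0.0625.

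Ggct encodes a gamma-glutamyl cyclotransferase that acts on gamma-glutamyl amino acids (ENSMUSG00000002797, chromosome 6, 54982580 to 54992950, minus strand). It was a low transcript in both groups, 2.97 to 4.67 CPM in control (median 3.18) and 2.19 to 5.8 CPM in Nrf2 eyes (median 3.81), with 50 counts in its lowest library. In 6 of 7 mice the Nrf2 eye was higher, by at most 0.69 on the log2 scale, and in mouse 6 the change was -1.10. The log2 fold change of 0.26 (SE 0.28) was within the spread between mice (edgeR adjusted p = 0.653), and it was 0.15 with mice 3 and 4 left out.

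Chac1 encodes the cyclotransferase that degrades glutathione itself inside the cell, and it is a known Atf4 target (ENSMUSG00000027313, chromosome 2, 119351229 to 119354381, plus strand). It was the only one of the 10 genes with a lower estimate in Nrf2 eyes. Control eyes ranged from 2.62 to 19.2 CPM (median 14.2) and Nrf2 eyes from 2.45 to 8.44 CPM (median 4.06). The lowest control eye was control 4, and the other 6 control eyes, at 9.5 CPM or more, lay above all Nrf2 eyes. The log2 fold change was -1.31 (SE 0.49) and did not pass (edgeR adjusted p = 0.21). In 6 mice Chac1 was lower in the Nrf2 eye, and in mouse 4 it went from 2.62 to 8.21 CPM, a change of 1.80 on the log2 scale (exact two-sided sign-flip test over 7 mice, p = 0.0781). Without mouse 4 the fit gave -1.72 (edgeR adjusted p = 0.00818), and without mice 3 and 4 it gave -1.71 (edgeR adjusted p = 0.0345). DESeq2 (-1.29, adjusted p = 0.0351) and voom with quality weights (-1.43, adjusted p = 0.0165) passed it with all mice.

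The change of Ggct lay above that of Chac1 in 6 of 7 mice, and below it in mouse 4. The log2 change of Ggct minus that of Chac1 averaged 1.44 ± 1.24 (SD, n = 7), from -1.11 in mouse 4 to 2.64. The exact sign-flip permutation test gave p = 0.0469 (adjusted p = 0.0469), for a pair chosen with earlier results of these data known. The ratio of Ggct to Chac1 counts had a median of 0.261 in control eyes (0.187 to 1.22) and 0.824 in Nrf2 eyes (0.451 to 1.46), so the groups overlapped. Leaving out any mouse other than mouse 4 raised the exact adjusted p above the threshold, to 0.0625 or 0.0938, and without mouse 4 the difference was 1.87 at 0.0312, the smallest p for 6 mice.

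**Figure D3:**
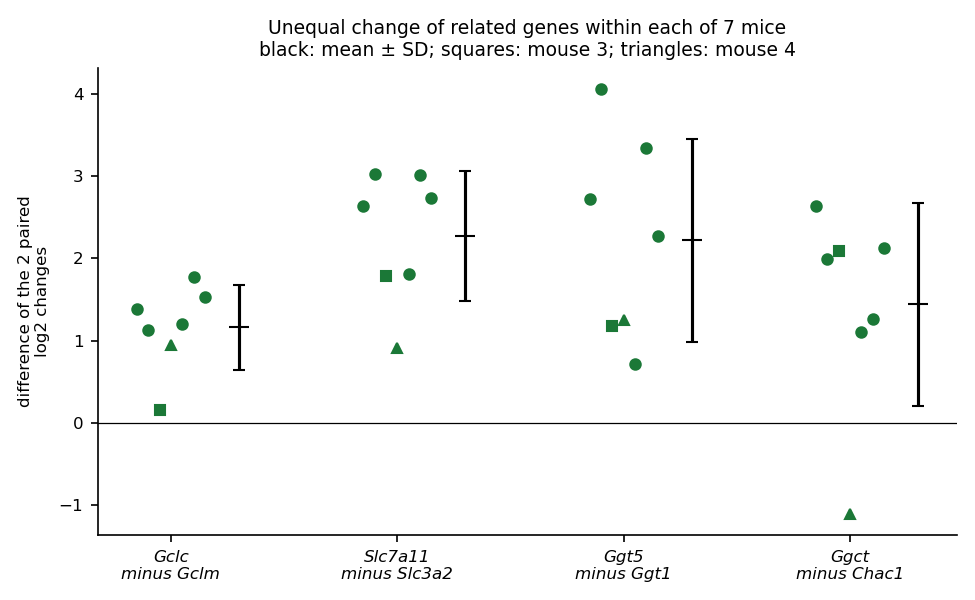
Difference between the paired log2 changes of 2 related genes in each of 7 mice (points, squares for mouse 3 and triangles for mouse 4) with the mean ± SD in black. The 4 pairs were chosen with earlier results of these data known. Gclc minus Gclm, Slc7a11 minus Slc3a2 and Ggt5 minus Ggt1 are above 0 in every mouse, and Ggct minus Chac1 is below 0 in mouse 4 alone, at -1.11.

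How closely each gene followed the vector transcript was asked within each group, as the correlation of log2 CPM over 7 eyes, for 10 genes in each group and 20 relations in all. In Nrf2 eyes the 6 genes that rose followed NFE2L2, with Pearson's r of 0.97 to 0.98 (exact permutation test, adjusted p from 0.00661 to 0.0085). Spearman's rho lay between 0.86 and 0.96, with adjusted p of 0.0139 for Gclc, Gsr and Ggt5, 0.027 for Gclm and 0.0529 for Gss and Slc7a11 (exact permutation test). Slc3a2 (r = 0.70, rho = 0.86), Ggt1 (r = 0.50, rho = 0.68), Ggct (r = -0.07, rho = -0.07) and Chac1 (r = -0.68, rho = -0.68) did not pass, with adjusted p between 0.0529 and 0.906 over both measures (exact permutation test).

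Nrf2 4 stood apart from the other Nrf2 eyes in the vector transcript, at 1163 CPM against 4577 or more. Over the other 6 eyes r was 0.90 for Gclc, 0.95 for Gclm, 0.91 for Gss, 0.88 for Slc7a11, 0.94 for Gsr and 0.92 for Ggt5. None of these passed with 6 eyes (exact permutation test, adjusted p = 0.106, and 0.107 for Slc7a11). With Nrf2 4 and Nrf2 1 left out, the eyes farthest from the median vector level, r ranged from 0.85 for Slc7a11 to 0.95 for Ggt5. The unadjusted p of the exact permutation test was 0.00833 for Ggt5, the smallest that 5 eyes allow. It was 0.025 for Gclm, 0.0333 for Gss and Gsr, 0.0667 for Gclc and 0.0917 for Slc7a11. Even the p of Ggt5 did not pass when adjusted over 20 relations, and the p of the other genes was above the smallest possible. How far the smaller number of eyes accounts for the loss of these calls was not tested. The r stayed at 0.85 or more in all 6 genes.

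The control eyes also held vector transcript, and 2 genes followed it there. For Gclc r was 0.83 (exact permutation test, adjusted p = 0.00661) and rho 0.96 (adjusted p = 0.0139), and for Gclm r was 0.77 (adjusted p = 0.0332) and rho 0.89 (adjusted p = 0.041). The relation for Gsr was r = 0.74 and did not pass (exact permutation test, adjusted p = 0.0754). Without control 3, which stood apart at 1163 CPM against at most 175, r was 0.85 for Gclc (exact permutation test, p = 0.00833, adjusted p = 0.106) and 0.59 for Gclm (p = 0.188, adjusted p = 0.375). Control 1 and control 6, the eyes farthest from the median vector level, held only 45 and 28 counts of the vector transcript. With both left out, r was 0.90 for Gclc and 0.82 for Gclm. Neither passed over 5 eyes (exact permutation test, p = 0.00833 for Gclc, again the smallest possible, and 0.1 for Gclm). The relation of Gclc was thus as strong without these eyes, and that of Gclm was weaker without control 3. Chac1 in control eyes had r = -0.44 (exact permutation test, adjusted p = 0.391) and rho = -0.79 (p = 0.048, adjusted p = 0.096).

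**Figure D4:**
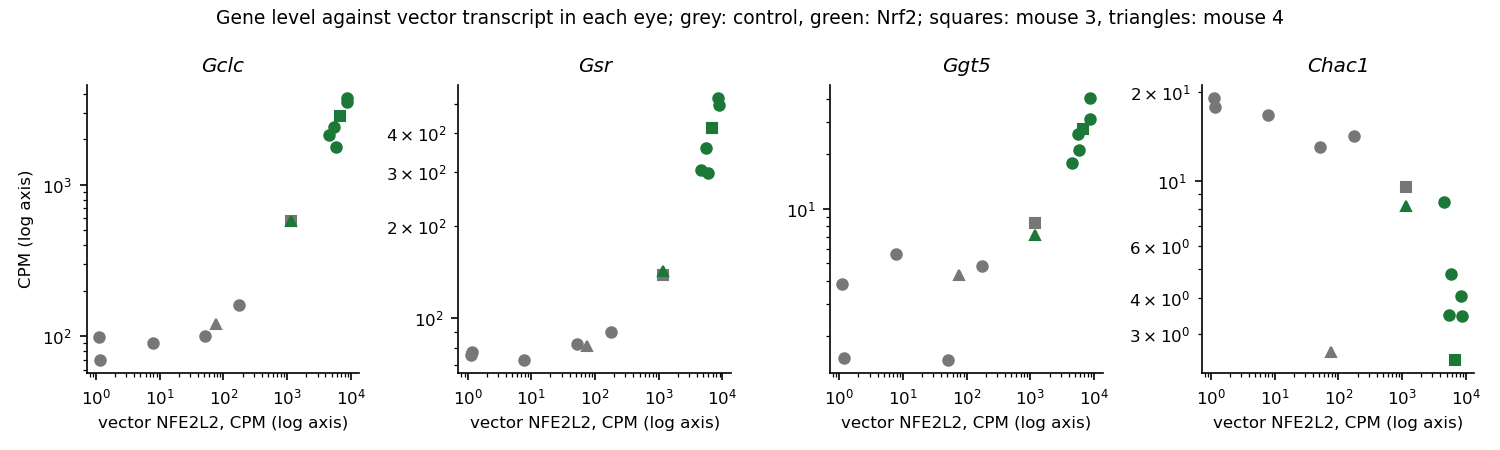
Level of Gclc, Gsr, Ggt5 and Chac1 against the vector transcript NFE2L2 in each eye, both in CPM on log axes, control eyes gray and Nrf2 eyes green, squares for mouse 3 and triangles for mouse 4. Control 3 and Nrf2 4 lie on top of each other near 1163 CPM of vector transcript, and Chac1 of control 4 is low at 75.5 CPM of vector transcript.

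The genes whose log2 CPM was most like that of Gclc over the 14 libraries, out of 12025 genes with a mean of at least 5 CPM, were Srxn1 (Pearson's r = 0.998), Txnrd1 (0.997) and Hmox1 (0.995). They encode sulfiredoxin, a thioredoxin reductase and heme oxygenase. For Chac1 they were the phosphatase Dusp5 (0.945), the RNA-binding protein Hnrnpa2b1 (0.930) and the syntenin Sdcbp2 (0.926). These correlations pool both groups and share libraries and normalization, so they describe likeness of pattern alone.

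Other genes of the pathway were taken as lists by role, 50 genes in 4 lists, and 2 of the 47 tested passed the edgeR test, near the 3.43% of all genes that passed in either direction. Among other enzymes of glutathione breakdown and gamma-glutamyl turnover, 0 of 11 tested passed, with a median log2 fold change of 0.01 against -0.04 over all genes. DESeq2 and voom also gave 0, and 2 genes, Dpep2 and Ggt6, were lower at an unadjusted edgeR p under 0.05. The peptidase Cndp2, which splits cysteinylglycine, was at 123 ± 10.5 CPM in control and 122 ± 17.1 CPM in Nrf2 eyes (SD, n = 7, log2 fold change 0.12, edgeR adjusted p = 0.596). The 5-oxoprolinase Oplah (0.12), the aminopeptidase Lap3 (0.31) and Chac2 (-0.09), the constitutive relative of Chac1, did not pass either, with adjusted p of 0.698, 0.313 and 0.833 in the same test.

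Among the partners of Slc3a2 and the other cystine carrier, 0 of 5 tested passed, with a median of 0.06, and 0 by DESeq2, by voom or at an unadjusted edgeR p under 0.05. Slc7a8 (log2 fold change 0.17), Slc7a10 (-0.15), Slc7a5 (0.12) and Slc7a6 (-0.07), amino acid transporters of the same family as Slc7a11, had edgeR adjusted p between 0.596 and 0.886. Slc7a9 and Slc3a1, which form that other carrier in kidney, were too low to test, at a mean of 0.0436 and 0.328 CPM over all libraries.

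Among genes of glutamate, glycine and cysteine supply and mitochondrial glutathione import, 1 of 17 rose, and the median was -0.14. DESeq2 gave 4 higher and 3 lower, where 7.6% of all genes were higher and 4.33% lower. An unadjusted edgeR p under 0.05 gave the same counts, where 10.7% of all genes were higher and 7.49% lower. The gene that rose was Slc1a4, a carrier of neutral amino acids such as serine and cysteine. It ran from 8.68 to 42.6 CPM in control eyes (median 11.3) and from 43.4 to 563 CPM in Nrf2 eyes (median 212), so the groups nearly met but did not overlap. Its log2 fold change was 3.90 (SE 0.48, edgeR adjusted p = 0.00936), next to that of Gclc in size, and 4.49 without mice 3 and 4. The glutamate transporter Slc1a1 (0.15, adjusted p = 0.839), the glutamine synthetase Glul (0.55, adjusted p = 0.0587), the glycine transporter Slc6a9 (0.37, adjusted p = 0.385) and the mitochondrial glutathione importer Slc25a39 (0.50, adjusted p = 0.0894) did not pass in the edgeR test. Slc25a39 was higher in 7 of 7 mice, as were 5.65% of all genes tested. It was at 238 ± 25 CPM in control and 308 ± 38.5 CPM in Nrf2 eyes (SD, n = 7). DESeq2 passed Glul (adjusted p = 0.00245) and Slc25a39 (adjusted p = 0.00535). Voom with quality weights passed Glul (adjusted p = 0.0035), Slc25a39 (adjusted p = 0.0198) and Slc6a9 (adjusted p = 0.0367).

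Among Atf4 and its amino acid stress targets, the group to which Chac1 belongs by regulation, 1 of 14 rose and 0 fell, with a median of 0.12. DESeq2 gave 3 higher and 0 lower, where 7.6% of all genes were higher and 4.33% lower. An unadjusted edgeR p under 0.05 gave 5 higher and 1 lower, Atf4, where 10.7% of all genes were higher and 7.49% lower. Cebpb, a transcription factor that also serves inflammation and differentiation, ran from 43.2 to 74.8 CPM in control eyes (median 54.5) and from 64.5 to 137 CPM in Nrf2 eyes (median 101). Its log2 fold change was 1.01 (SE 0.20, edgeR adjusted p = 0.0345). The call was lost without mouse 1, 3, 5 or 7 (edgeR adjusted p from 0.0872 to 0.123), without mice 3 and 4 together (0.0746) and without a filter on low counts (0.0568). Atf4 itself went from 81 ± 7.41 to 60.5 ± 8.3 CPM (SD, n = 7) and did not pass (log2 fold change -0.30, SE 0.12, edgeR adjusted p = 0.24). The serine synthesis enzymes Phgdh (-0.28, adjusted p = 0.285) and Psat1 (0.05, adjusted p = 0.869) and the phosphatase subunit Ppp1r15a (0.46, adjusted p = 0.0718) did not pass in that test either. Ppp1r15a passed by DESeq2 (adjusted p = 0.012) and by voom with quality weights (adjusted p = 0.00595).

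**Figure D5:**
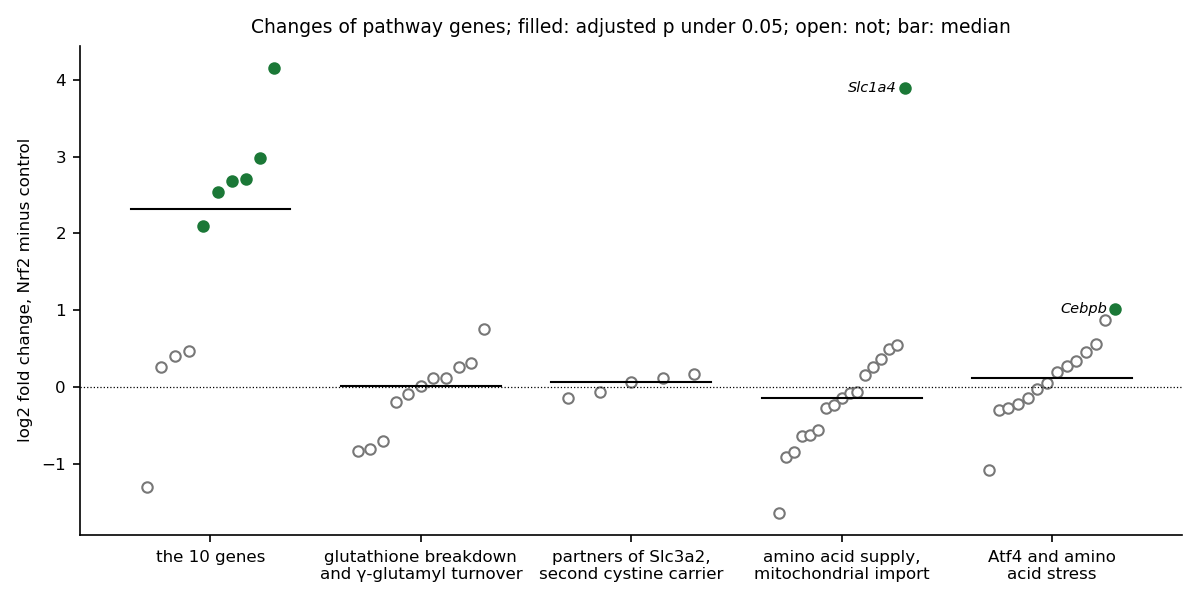
Fitted log2 fold change of the 10 genes and of the tested genes of 4 pathway lists, a circle for each gene, filled where the edgeR adjusted p was under 0.05, with a bar at each median. Of the 47 listed genes only Slc1a4, at 3.90, and Cebpb, at 1.01, are filled.

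The labelled tissue was checked against marker lists. All 14 RPE markers were tested, none was at 0 in all libraries, and their summed level was 14615 to 30905 CPM in control and 22480 to 29676 CPM in Nrf2 eyes, with 1 of 14 lower, the retinoid isomerase Rpe65 (log2 fold change -2.17, edgeR adjusted p = 0.0199). DESeq2 also passed Ttr and Tyr as higher, as did an unadjusted edgeR p under 0.05. Most markers of the retina had lower estimates in Nrf2 eyes. The summed cone markers were lower in the Nrf2 eye of all 7 mice, 41.3 to 1054 CPM in control and 17.5 to 103 CPM in Nrf2 eyes, with 2 of 8 passing, Opn1sw and Gnat2, and a median log2 fold change of -3.03. Of these 8 markers, 6 were lower by DESeq2, 8 by voom and 7 at an unadjusted edgeR p under 0.05, and without mice 3 and 4 Gnat2 alone passed. Of all genes tested, 0.491% were lower in the edgeR test, 4.33% by DESeq2, 6.17% by voom and 7.49% at that unadjusted p. The shares of all genes that were higher were 2.94%, 7.6%, 9.73% and 10.7% in the same order. Rod markers summed to 20.4 to 506 and 7.31 to 96.7 CPM (0 of 9 passing, 4 of 9 lower by DESeq2 and at an unadjusted edgeR p under 0.05), and inner retina and Müller glia markers to 2064 to 4004 and 1665 to 2515 CPM (0 of 10 passing, 1 higher and 2 lower by DESeq2 and at an unadjusted edgeR p under 0.05), the latter sum lower in 7 of 7 mice. Most of that sum was Rlbp1, which is also an RPE marker, and without it the sum was 703 to 1443 CPM in control and 739 to 1165 CPM in Nrf2 eyes, lower in 4 of 7 mice. Sums for macrophages and microglia (248 to 436 in control, 150.1 to 541 in Nrf2 eyes), fibroblasts (183 to 996 and 398 to 1298), endothelium (48.2 to 247 and 63.8 to 139), choroid melanocytes (325 to 681 and 480.4 to 614) and blood (555 to 3743 and 341 to 1376 CPM) overlapped, with 0 genes passing in each list. At an unadjusted edgeR p under 0.05 these lists held 3 genes (Adgre1, Csf1r and Alas2), and DESeq2 passed C1qa, C1qb and Csf1r. The part of these other cell types in the changes of the 10 genes was not tested.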

How the data were processed

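RNA from the RPE of both eyes of 7 mice was amplified with a low-input kit, and 14 libraries were sequenced. The authors estimated counts per gene with Salmon 0.9.1 (version per the labels) on mouse transcripts of Ensembl release 91 with the vector transcript added, and the deposited values are such estimated counts, rounded and without scaling between libraries. That they are the Salmon estimates was inferred from the whole numbers and the set of rows. The authors checked reads with FastQC. Estimated counts divide reads between overlapping transcripts by a model, so values of Gclm and Gss are less certain by the overlaps given.

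Symbols, positions and overlaps come from GENCODE M21 (GRCm38), which matched 34401 of 34452 mouse rows. Total counts and CPM are on these rows and the vector row. The test was edgeR 4.0.16 (R 4.3.3, quasi-likelihood, TMM, filterByExpr with a minimum count of 10, mouse and treatment as terms), with 6 residual and 2.68 prior degrees of freedom and Benjamini-Hochberg adjustment over 16289 mouse genes. The vector row was left out of the adjustment. The SE of a log2 fold change was derived from the F statistic. The labels give each library a replicate number, and libraries with the same number were taken as the 2 eyes of 1 mouse. The labels name no animal, so the pairing is inferred. The methods state 6 pairs for this comparison and the labels list 7, and which pair the authors left out, if any, is not given in the sources used here. Deviations of the eyes from their group means, over 12039 genes, correlated at 0.03, 0.16, 0.11, -0.43, 0.40, -0.25 and 0.18 in mice 1 to 7. Paired differences used log2 CPM with a prior count of 2 and exact sign-flip tests (Python 3.11.15), and correlations used exact permutations (scipy 1.17.1).

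Alternatives were no replicate block, RLE factors, total counts only, no filter, DESeq2 1.42.0, limma 3.58.1 voom with sample quality weights, each mouse left out, and mice 3 and 4 left out. For the relations with the vector, the version without Nrf2 4 or control 3 was chosen after seeing the data, as were the alternatives for listed genes. The 10 genes, the pathway and marker lists and the pairs of genes were chosen with earlier results of these data known. Listed genes are named where they passed the threshold or were among the 4 with the highest mean CPM of their list, and those most like Gclc or Chac1 by Pearson's r. The scripts were tested on simulated data. P-values set a difference or relation against the variation between these mice or eyes alone.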

Additional observations from a re-analysis of the deposited data

Results flagged for a closer look

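Within each group of 7 values, 9 of the 34 sets had an extreme value set apart from the others by Dixon's test, where chance gives about 2. Of these, 4 were the same library: control 3 was the highest control eye for Gclc (577 CPM), Gclm (346 CPM), Gss (81.3 CPM) and Gsr (138 CPM), and its vector transcript stood at 1163 CPM. Slc3a2 was set apart at both ends, with Nrf2 7 highest among Nrf2 eyes (854 CPM) and control 6 lowest among control eyes (357 CPM). For Ggct, mouse 6 had the lowest paired log2 difference (-1.10), from 111 counts in the control and 50 counts in the Nrf2 eye. For Chac1, mouse 4 had the highest paired log2 difference (1.80), and the same mouse was lowest in the change of Ggct minus that of Chac1 (-1.11). Chac1 held 74 counts in control 4 and 201 counts in Nrf2 4.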

How the results depend on the processing

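Gclc, Gclm, Gss, Slc7a11 and Gsr passed in the same direction under all 14 alternatives, and the number of the 10 genes that passed lay between 5 and 9. Over all genes, the paired test passed 559, of which 85.7% were higher. Without a replicate block it passed 1100 (877 higher, 223 lower), without a filter 347 (307 and 40), with DESeq2 1943 (1238 and 705), with voom 2590 (1585 and 1005), and with single mice left out from 111 (mouse 7) to 1998 (mouse 4, 978 and 1020). With total counts only, 512 passed, of which 61.3% were higher, and the median over all genes moved from -0.04 to -0.17, below which none of the 10 genes but Chac1 lay. The replicate block changed no call among the 10 genes. Of the 47 listed genes, 2 passed, against 6 without a replicate block, 1 without a filter, 10 with DESeq2, 12 with voom and 1 to 8 with single mice left out. Without the block Glul, Slc25a39 and Ppp1r15a also passed (0.57, 0.51 and 0.47). With mice 3 and 4 left out, all 4 pair tests lost their call (1.40, 2.64, 2.62 and 1.82), since 5 mice cannot reach it. The 4 pairs were chosen with earlier results of these data known. The change of Ggct minus Chac1 ranged from 1.24 to 1.87 with single mice left out. Relations with the vector passed for 6 genes in Nrf2 and 2 in control eyes, and for 0 in both without the 2 farthest eyes. There the exact permutation p ran from 0.00833, the smallest of 5 eyes, to 0.0917 for the 6 genes in Nrf2 eyes. In control eyes it was 0.00833 for Gclc and 0.1 for Gclm. The r stayed at 0.85 to 0.95 in Nrf2 eyes and at 0.90 and 0.82 for Gclc and Gclm in control eyes. They passed for 0 in both without Nrf2 4 or control 3, with r of 0.88 to 0.95 in Nrf2 eyes. The longer antioxidant element left 1 promoter window, of Ggt1, in place of 5. Signs turned for listed genes near 0: with total counts Cndp2 (-0.01), Oplah (-0.01) and Psat1 (-0.08), with voom Slc7a10 (0.36) and Psat1 (-0.06), and with single mice left out Slc7a10 (-0.47 to 0.08), Slc7a6 (-0.18 to 0.04), Slc7a5 (-0.01 to 0.21), Slc1a1 (-0.09 to 0.31), Psat1 (-0.04 to 0.12) and Chac2 (-0.20 to 0.02). The cause of these shifts was not tested. For Ggt5, Ggct and Chac1, whose lowest libraries held 36, 50 and 74 counts, counting error adds to the spread between mice.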

Other observations

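Of the listed pathway genes, 1 more is given that was picked after its values were seen. The stress-inducible Sesn2, a sestrin, was at 30.3 ± 5.43 CPM in control and 51.9 ± 15.5 CPM in Nrf2 eyes (SD, n = 7). It was higher in 6 of 7 mice and did not pass in the edgeR test (log2 fold change 0.87, SE 0.23, adjusted p = 0.0905). DESeq2 and voom with quality weights passed it after adjustment.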
